A study of Mus musculus with 12 samples.

Results

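The genes described here carry long-chain fatty acids into the heart muscle cell, activate them, pass them through the carnitine system into mitochondria, oxidise them there, or keep them as triglyceride. They are 35 mouse genes fixed by name, from the fatty acid translocase Cd36 to the triglyceride-synthesising enzymes Dgat1 and Dgat2, out of 22915 genes in the table. Of the 35, 34 passed the filter on low values, a normalized count no lower than 10 in 3 or more libraries, and were tested among the 13184 genes that did so. Etfb, the beta subunit of the electron transfer flavoprotein, did not reach it.

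RNA was sequenced from primary cardiomyocytes of adult male C57/Bl6 mice of 12 weeks, kept for 24 h under normoxia with PBS, mLIF, mOSM or hlOSM. The labels give 25 ng/mL for each cytokine, and the paper's text states a lower dose. Mouse LIF signals through the LIF receptor and mouse OSM through the OSM receptor, each together with gp130, whereas hlOSM is a mouse OSM engineered with a human-like AB loop so that it can use both receptors. Each condition had 3 libraries, 12 in all, and the labels name no genetic change in the mice. Nothing in the labels says whether the libraries came from separate mice or preparations, so that the p-values below measure the spread between these libraries, which may be technical. Values are normalized counts that the authors had rounded, with totals from 2745748 to 2911891 per library. These totals are not read numbers. The paper states only an average sequencing depth, that of each library is not analysed here, and no counting error is attached to single values.

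The adult heart draws most of its energy from fatty acids. Lipoprotein lipase frees them from circulating triglyceride and is inhibited by ANGPTL4. Cells take fatty acids up with the help of CD36 and fatty acid transport proteins, and acyl-CoA synthetases couple them to coenzyme A. The acyl chain is moved onto carnitine by CPT1 at the outer mitochondrial membrane and back onto coenzyme A by CPT2 inside. Malonyl-CoA, made in the heart by ACACB and removed by malonyl-CoA decarboxylase, inhibits CPT1. Each turn of the beta-oxidation spiral then uses an acyl-CoA dehydrogenase, a hydratase, a hydroxyacyl-CoA dehydrogenase and a thiolase, with electrons passed on through the electron transfer flavoprotein and its dehydrogenase. Genes of this pathway are known targets of PPAR and ERR nuclear receptors and their coactivator PGC-1alpha, and LIF and OSM signal mainly through STAT factors.

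Of the 27 genes with an entry in the RefSeq table of promoters (GRCm38.p6, 250 bases before to 50 bases after the start), 5 held the STAT site TTCNNNGAA, which reads the same on both strands. These were Cpt2, Hadha, Hadhb, Lipe and Ucp3. The share was 18.5% of the 27 genes beside 9.55% of the 27025 gene symbols in the table. The PPAR direct repeat AGGTCANAGGTCA was searched for on both strands and was in 0 of the 27, beside 0.0481% of all symbols. The ERR element TCAAGGTCA, which shares the letters AGGTCA with that repeat, was in 0 of the 27, beside 0.466% of all symbols. A match is a description of letters and not a bound site. Lpl, Angptl4, Cpt1b, Acaa2, Decr1, Acot13, Dgat1 and Dgat2 had no entry. The stretches below show the matches in Cpt2 and Hadha, which fell with mOSM and hlOSM, beside those in Hadhb and Ucp3, which did not pass the test in any comparison. Capitals mark the 9 bases of the site, and each line reads 5′ to 3′ on the strand of its gene.
Cpt2: ttctatccagTTCTGTGAAaggaaaagag
Hadha: tagtctcaccTTCAGAGAAatcatccttt
Hadhb: aaaggatgatTTCTCTGAAggtgagacta
Ucp3: gtcaactagcTTCTCAGAAttaggtttca
The Cpt2 stretch lay at chr4:107923771-107923799 on the minus strand, upstream of the gene as the table places it, and the site began at position −200 from the RefSeq start. The Ucp3 stretch lay at chr7:100472919-100472947 on the plus strand, also upstream, with the site from position −62. Hadha on the minus strand and Hadhb on the plus strand lie head to head, and their stretches are the same interval, chr5:30155118-30155146, read on opposite strands. The site began at position −156 for Hadha and at −125 for Hadhb. In the deposited table the Hadha gene extends to base 30155162 of chromosome 5, so that the interval lies within its first bases there and 5′ of Hadhb.

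With hlOSM, 18 of the 34 genes tested passed the threshold of an adjusted p under 0.05 against PBS, where 37.9% of all tested genes did. Of these, 15 were lower, beside 19.8% of all genes, and 3 were higher, beside 18.2%. With mOSM, 16 passed it, 13 lower and 3 higher, where 31.2% of all genes passed, 15.8% lower and 15.4% higher. The higher genes were Angptl4, Slc27a1 and Dgat1 in either comparison, and all comparisons with PBS share the same 3 PBS libraries. With mLIF, 2 genes passed, Angptl4 higher and Acacb lower, where 9.91% of all genes passed, 5.47% higher and 4.44% lower. When the replicate number was added to the fit as a block, fewer passed. These were 16 with hlOSM, 12 with mOSM and 1 with mLIF, where 31.2%, 25.3% and 5.95% of all genes did. The median log2 fold change over the 34 genes was −0.11 under mLIF, −0.15 under mOSM and −0.17 under hlOSM, where the medians over all tested genes lay between −0.01 and 0.00. Among the genes that fell, the largest log2 change was −0.65 for Plin5 with hlOSM. At a minimum change of 1.5-fold, 3 of the 34 genes counted with hlOSM, Angptl4, Acot2 and Plin5, where 14.8% of all tested genes did. With mOSM 2 counted, Angptl4 and Dgat1, where 12.1% of all genes did, and with mLIF 1, Angptl4, where 2.54% did. Thus the share of the 34 genes called with the OSM proteins lay above that of all genes without a minimum fold and below it at 1.5-fold. The genes were chosen with earlier results of these data known, so that these shares describe the list and are not independent support.

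The 3 libraries of a cytokine lay wholly above or below the 3 of PBS in 17 of the 34 genes with mLIF, 15 with mOSM and 21 with hlOSM. Over all tested genes the shares were 30.3%, 40.1% and 47%. For any single gene, an exact permutation test of 3 libraries against 3 cannot give a p below 0.1, so that the adjusted p-values rest on limma's pooled estimate of the spread. The summed normalized count of the 35 genes was 18126, 17319 and 18837 in PBS libraries, 17910, 16918 and 16490 in mLIF libraries, 15647, 16607 and 17489 in mOSM libraries and 15709, 16305 and 16880 in hlOSM libraries. All hlOSM sums lay below the lowest PBS sum, while mLIF and mOSM overlapped with PBS.

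**Figure D1:**
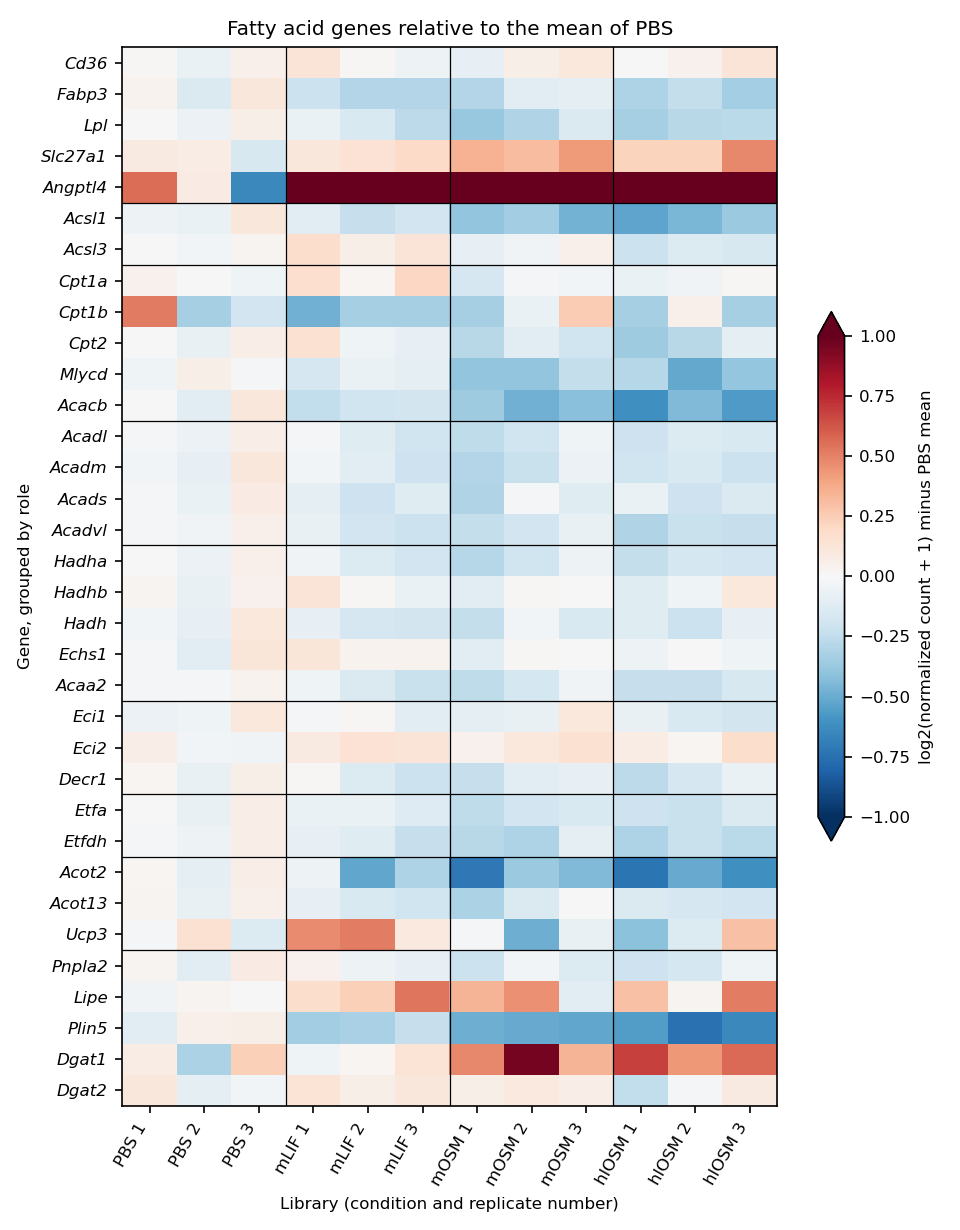
Log2(normalized count + 1) of the 34 tested genes minus their PBS mean, with 1 column per library and 1 row per gene, lines separating conditions and roles. Angptl4 is red in all 9 cytokine libraries, most rows of the carnitine entry, dehydrogenase and electron transfer groups are blue with mOSM and hlOSM, and the colour scale ends at a difference of 1 in either direction.

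These cultures are bulk samples, in which fewer cells of a type and less RNA per cell cannot be told apart. Markers of cell types changed as well, not all in the same direction as most of the fatty acid genes. All 10 cardiomyocyte markers were detected in every library, and their summed level was 16734 to 18520 with PBS, 14179 to 15960 with mLIF, 13018 to 15484 with mOSM and 13632 to 14113 with hlOSM. Of the 10, 6 were lower under mLIF, 7 under mOSM and 7 under hlOSM, beside 4.44%, 15.8% and 19.8% of all tested genes. The median log2 fold changes of the 10 were −0.23, −0.28 and −0.31. The shares of all tested genes that were higher were 5.47%, 15.4% and 18.2%, and the marker counts below are to be read beside both sets of shares. The 7 endothelial markers summed to 1043 to 1103 with PBS, 1042 to 1090 with mLIF, 1284 to 1429 with mOSM and 1294 to 1375 with hlOSM, and 4 of them were higher with mOSM and 5 with hlOSM, with 1 lower in each. The 8 fibroblast markers summed to 2296 to 2526 with PBS, 2110 to 2251 with mLIF, 2459 to 2885 with mOSM and 2307 to 2540 with hlOSM, with 2 higher and 3 lower under mOSM and 3 higher and 5 lower under hlOSM. The 6 markers of smooth muscle and pericytes summed to 615 to 826 with PBS, 554 to 626 with mLIF, 318 to 386 with mOSM and 314 to 335 with hlOSM, with 5 of 6 lower under both OSM proteins. The 7 macrophage markers summed to 304 to 319 with PBS and 320 to 390 with hlOSM, with 283 to 324 under mLIF and 343 to 391 under mOSM. Of the 5 that were tested, Cd68 alone was higher, under each cytokine, and Lyz2 was lower under hlOSM. Of 7 adipocyte markers 5 could be analysed, their sum was 37 to 44 with PBS and 13 to 23 with hlOSM, 27 to 30 with mLIF and 16 to 26 with mOSM, and only Fabp4, which endothelial cells also express, passed the filter. No marker in the table was at 0 in every library. The part of these shifts in the values below was not tested.

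Among the 5 uptake genes, Angptl4 and Slc27a1 rose, Lpl fell with both OSM proteins, Fabp3 fell with hlOSM, and Cd36 did not pass the threshold in any comparison. Angptl4 (chromosome 17, 33773750-33781830, minus strand), the secreted inhibitor of lipoprotein lipase, was measured at 158, 113 and 68 with PBS, given here and below for replicates 1, 2 and 3. It reached 234, 225 and 303 under mLIF, 451, 568 and 620 under mOSM and 489, 562 and 715 under hlOSM. Every cytokine library was above every PBS library, every library of the OSM proteins was above every mLIF library, and mOSM and hlOSM overlapped. The means were 113 ± 45.0 (SD, n = 3) with PBS, 254 ± 42.7 under mLIF, 546 ± 86.6 under mOSM and 589 ± 115 under hlOSM. The log2 fold change against PBS was 1.23 with mLIF (SE 0.19, adjusted p = 0.000376), 2.33 with mOSM (adjusted p = 4.71e-09) and 2.43 with hlOSM (adjusted p = 1.58e-09), the last a rise of 5.41-fold. These calls were kept when any 1 library was left out.

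Lpl (chromosome 8, 68880491-68907448, plus strand), the lipase itself, moved the other way. It was at 2624, 2514 and 2737 with PBS, 2506, 2357 and 2185 after mLIF, 2019, 2124 and 2379 after mOSM and 2080, 2167 and 2178 after hlOSM. All libraries of the OSM proteins lay below all PBS libraries, and mOSM overlapped with mLIF. Lpl fell with mOSM by 0.27 (SE 0.06, adjusted p = 0.00124) and with hlOSM by 0.29 (adjusted p = 0.00053) on the log2 scale, whereas the change with mLIF was −0.16 (adjusted p = 0.0911). Slc27a1 (chromosome 8, 71568882-71587302, plus strand), which encodes the fatty acid transport protein FATP1, rose. Its values were 384, 381 and 323 with PBS, 392, 399 and 414 under mLIF, 460, 449 and 485 under mOSM and 422, 421 and 505 under hlOSM. No cytokine library overlapped with PBS, and the log2 fold changes were 0.15 with mLIF (adjusted p = 0.208), 0.36 with mOSM (SE 0.07, adjusted p = 0.000743) and 0.31 with hlOSM (adjusted p = 0.00241).

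Fabp3, the cytosolic fatty acid binding protein of heart and muscle, was at 161, 142 and 170 in PBS libraries, 135, 128 and 128 in mLIF libraries, 128, 145 and 148 in mOSM libraries and 127, 133 and 124 in hlOSM libraries. The mLIF and hlOSM libraries were all below PBS, and mOSM overlapped with it. Only the fall with hlOSM passed the threshold, by 0.30 on the log2 scale (SE 0.09, adjusted p = 0.00958), and it missed it without PBS replicate 3 (adjusted p = 0.0574). The changes with mLIF and mOSM were −0.27 (adjusted p = 0.0501) and −0.17 (adjusted p = 0.153). Of its exonic bases, 19.6% are also annotated to genes on the other strand, and the strand setting of the counting is not stated. Cd36, the fatty acid translocase, ranged from 1345 to 1458 with PBS and from 1331 to 1542 over the 9 cytokine libraries. Its log2 fold changes were 0.03, 0.03 and 0.06 with mLIF, mOSM and hlOSM, and the 95% interval of the last ran from −0.06 to 0.18.

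Activation was represented by 2 long-chain acyl-CoA synthetases. Acsl1 (chromosome 8, 46471037-46536051, plus strand), the main form of the heart, was at 891, 883 and 1001 with PBS, 854, 786 and 810 after mLIF, 704, 726 and 667 after mOSM and 641, 674 and 712 after hlOSM. The libraries of the OSM proteins lay below all mLIF libraries, and these below all PBS libraries. Acsl1 fell with mOSM by 0.40 (SE 0.06, adjusted p = 1.83e-05) and with hlOSM by 0.45 (adjusted p = 3.05e-06) on the log2 scale, and the change with mLIF was −0.18 (adjusted p = 0.0606). Acsl3, a form bound to the endoplasmic reticulum and lipid droplets, was at 132, 130 and 135 with PBS, 150, 138 and 145 under mLIF, 125, 129 and 137 under mOSM and 114, 120 and 118 under hlOSM. The mLIF libraries were the highest and the hlOSM libraries the lowest, and no change of Acsl3 against PBS passed the threshold.

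The carnitine step and its control held 3 genes that fell with both OSM proteins, Acacb, Mlycd and Cpt2. Acacb (chromosome 5, 114146535-114250761, plus strand), the acetyl-CoA carboxylase at the mitochondrial surface that makes malonyl-CoA, was at 1140, 1052 and 1233 with PBS and at 958, 991 and 1002 with mLIF. It was at 889, 815 and 851 with mOSM and at 744, 839 and 771 with hlOSM. All mLIF libraries lay below PBS, and all libraries of the OSM proteins lay below mLIF. The means were 1142 ± 90.5 with PBS, 984 ± 22.9 with mLIF, 852 ± 37.0 with mOSM and 785 ± 49.0 with hlOSM (SD, n = 3). Acacb fell by 0.42 with mOSM (SE 0.06, adjusted p = 1.20e-05) and by 0.54 with hlOSM (adjusted p = 3.00e-07) on the log2 scale, to 0.688 times the PBS level with hlOSM. The fall with mLIF, by 0.21 (adjusted p = 0.028), missed the threshold when any of PBS replicates 1 and 3 or mLIF replicates 1, 2 and 3 was left out, with an adjusted p of up to 0.173.

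Mlycd (chromosome 8, 119394878-119411102, plus strand), the decarboxylase that removes malonyl-CoA, fell as well. It was at 161, 173 and 165 in PBS libraries, 148, 159 and 155 in mLIF libraries, 126, 126 and 141 in mOSM libraries and 136, 116 and 127 in hlOSM libraries. The libraries of the OSM proteins were below all others, and the log2 fold changes were −0.34 with mOSM (SE 0.08, adjusted p = 0.00275) and −0.40 with hlOSM (adjusted p = 0.000621). The transcripts of the enzyme that makes malonyl-CoA and of the one that removes it were thus both lower. Cpt2 (chromosome 4, 107903981-107923610, minus strand), shown above with a STAT site, was at 454, 432 and 476 with PBS, 503, 440 and 429 after mLIF, 374, 420 and 395 after mOSM and 355, 375 and 423 after hlOSM. It fell by 0.20 with mOSM (adjusted p = 0.0452) and by 0.24 with hlOSM (SE 0.07, adjusted p = 0.0118), with no library of either above the lowest of PBS, and its log2 change with mLIF was 0.01. The call with mOSM was lost without any of PBS replicates 1 and 3, mLIF replicate 2, mOSM replicates 1 and 3 or hlOSM replicate 2 (adjusted p up to 0.170), and that with hlOSM without PBS replicate 3 or hlOSM replicate 1 (up to 0.074).

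The 2 forms of CPT1, which catalyse the entry step that malonyl-CoA inhibits, did not pass the threshold in any comparison. Cpt1a, the form of liver and of the fetal heart, ranged from 145 to 154 with PBS, 152 to 173 with mLIF, 133 to 148 with mOSM and 143 to 151 with hlOSM, with log2 fold changes of 0.13, −0.07 and −0.03. Cpt1b, the form of adult muscle, had values of only 8 to 17. Of its exonic bases, 81.4% are also annotated to another gene model on the same strand, and the authors left out reads that fell on several genes, so that this low value cannot be read as the level of Cpt1b. Etfb, which ranged from 3 to 14, had 58.2% of its exonic bases shared in the same way.

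**Figure D2:**
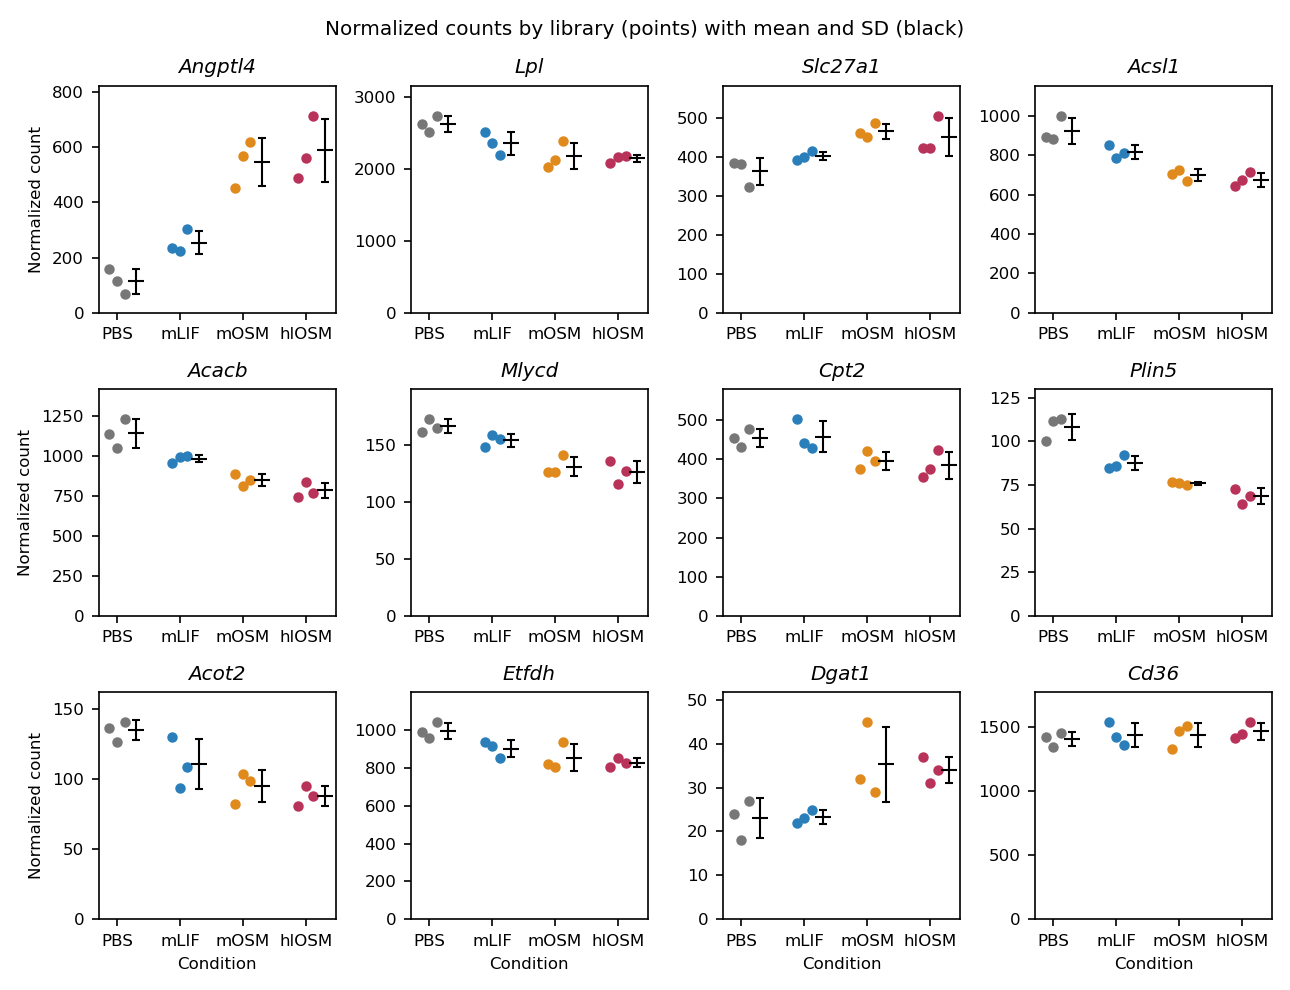
Normalized count of 12 genes in each library (coloured points) with the mean and SD of 3 libraries (black), by condition, each panel starting at 0. Angptl4 climbs from 68 to 158 with PBS to 451 to 715 with the OSM proteins, Acsl1, Acacb, Mlycd and Plin5 step down, and Cd36 lies between 1331 and 1542 throughout.

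Among the acyl-CoA dehydrogenases, 3 of 4 fell with each OSM protein, and none passed the threshold with mLIF. Acadvl, which acts on very long chains, was at 764, 750 and 797 with PBS, 733, 673 and 665 under mLIF, 651, 674 and 733 under mOSM and 624, 660 and 656 under hlOSM. All cytokine libraries lay below PBS, with log2 fold changes of −0.16 (adjusted p = 0.0807), −0.17 (adjusted p = 0.0285) and −0.25 (SE 0.06, adjusted p = 0.00138). The long-chain enzyme Acadl ranged from 1075 to 1172 with PBS, 937 to 1087 with mOSM and 968 to 1018 with hlOSM, and fell by 0.16 with both (adjusted p = 0.0416 and 0.0346). The medium-chain enzyme Acadm ranged from 850 to 971 with PBS, 734 to 862 with mOSM and 773 to 810 with hlOSM, and fell by 0.19 with both (adjusted p = 0.0269 and 0.0247). The short-chain enzyme Acads ranged from 193 to 214 with PBS and from 164 to 199 over the cytokine libraries, and its log2 fold changes were −0.15 with mOSM and −0.14 with hlOSM. The calls of these genes were close to the threshold, except that of Acadvl with hlOSM, which was kept when any 1 library was left out. With mOSM, those of Acadvl, Acadl and Acadm were lost without PBS replicate 3, mOSM replicate 1 or mOSM replicate 2, those of Acadvl and Acadl also without PBS replicate 1, and that of Acadl also without mLIF replicate 2 or hlOSM replicate 2, with adjusted p-values up to 0.189. With hlOSM, those of Acadl and Acadm were lost without PBS replicate 3, hlOSM replicate 1 or hlOSM replicate 3, and that of Acadl also without PBS replicate 1 or hlOSM replicate 2 (up to 0.146). Of the exonic bases of Acadvl, 42.9% are also annotated to Dvl2 on the other strand.

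In the later steps of the spiral, 1 of 5 genes fell with mOSM and 2 of 5 with hlOSM. Hadha (chromosome 5, 30118304-30155162, minus strand), the alpha subunit of the trifunctional protein, was at 1447, 1386 and 1497 in PBS libraries, 1411, 1313 and 1261 in mLIF libraries, 1184, 1259 and 1389 in mOSM libraries and 1223, 1275 and 1265 in hlOSM libraries. It fell with mOSM by 0.18 (adjusted p = 0.0225) and with hlOSM by 0.20 (SE 0.06, adjusted p = 0.00884), and the call with mOSM was lost without PBS replicate 1 or 3 or mOSM replicate 1 or 2 (up to 0.139). Its partner Hadhb (chromosome 5, 30155248-30184593, plus strand), the beta subunit, was at 515, 479 and 519 with PBS, 550, 507 and 482 after mLIF, 466, 508 and 504 after mOSM and 464, 489 and 543 after hlOSM. Its log2 fold changes were 0.02, −0.03 and −0.02. The ratio of Hadha to Hadhb, a comparison chosen after these values were seen, was 2.81, 2.89 and 2.88 with PBS, 2.57, 2.59 and 2.62 under mLIF, 2.54, 2.48 and 2.76 under mOSM and 2.64, 2.61 and 2.33 under hlOSM. All 9 cytokine libraries were below the 3 PBS libraries. An exact permutation test of the ratio against PBS gave p = 0.1 for each cytokine, the lowest it can give with 3 libraries against 3. As the pair was picked for its values, this is a description and not support for a difference.

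Acaa2, the mitochondrial thiolase, was at 669, 668 and 693 with PBS, 576, 578 and 606 with hlOSM and 567, 600 and 662 with mOSM. It fell by 0.21 with hlOSM (adjusted p = 0.0107), and its log2 change with mOSM was −0.15 (adjusted p = 0.0609). Hadh, the hydroxyacyl-CoA dehydrogenase of short and medium chains, ranged from 500 to 570 with PBS and from 449 to 519 over the cytokine libraries. Echs1, the short-chain hydratase, ranged from 316 to 370 with PBS and from 317 to 370 over the cytokine libraries. None of the 3 auxiliary enzymes for unsaturated chains passed the threshold. Eci1 lay between 168 and 205, Eci2 between 221 and 256 and Decr1 between 564 and 705 over all 12 libraries, and the nearest to the threshold was Decr1 with hlOSM at −0.17 (adjusted p = 0.0504).

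Both tested genes of electron transfer fell with both OSM proteins. Etfdh, the dehydrogenase that hands electrons from the flavoprotein to ubiquinone, was at 988, 959 and 1043 in PBS libraries, 939, 915 and 850 in mLIF libraries, 820, 806 and 935 in mOSM libraries and 805, 854 and 827 in hlOSM libraries. All cytokine libraries were below PBS, and the log2 fold changes were −0.15 (adjusted p = 0.127), −0.23 (SE 0.06, adjusted p = 0.00593) and −0.27 (adjusted p = 0.00128). Etfa, the alpha subunit of the flavoprotein, was at 477, 453 and 500 with PBS, 455, 456 and 435 after mLIF, 399, 418 and 429 after mOSM and 413, 409 and 431 after hlOSM. It fell by 0.20 with mOSM (adjusted p = 0.011) and by 0.19 with hlOSM (adjusted p = 0.0123), with all these libraries below PBS. Both calls of Etfa were lost without PBS replicate 3, and that with mOSM also without mOSM replicate 1 (adjusted p up to 0.065 and 0.0678).

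Acot2 (chromosome 12, 83987861-83993873, plus strand), a mitochondrial thioesterase that frees fatty acids from coenzyme A, was at 137, 127 and 141 with PBS, 130, 94 and 109 under mLIF, 82, 104 and 99 under mOSM and 81, 95 and 88 under hlOSM. All libraries of the OSM proteins were below PBS, and mLIF overlapped with PBS. Acot2 fell by 0.51 with mOSM (SE 0.11, adjusted p = 0.00157) and by 0.61 with hlOSM (adjusted p = 0.000198). It has a close paralog, Acot1, which was measured at 2 to 6 in every library, and reads that aligned to several places were left out by the authors, so that reads matching both genes are in neither value. Acot13, another mitochondrial thioesterase, ranged from 258 to 281 with PBS and from 218 to 271 over the cytokine libraries. Ucp3, an uncoupling protein of muscle mitochondria that also carries a STAT site, ranged from 17 to 35. Neither passed the threshold in any comparison.

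In storage and lipolysis, Plin5 fell and Dgat1 rose. Plin5 (chromosome 17, 56111601-56117596, minus strand), the perilipin that ties lipid droplets to mitochondria, was at 100, 112 and 113 in PBS libraries, 85, 86 and 92 in mLIF libraries, 77, 76 and 75 in mOSM libraries and 73, 64 and 69 in hlOSM libraries. The 4 conditions did not overlap with each other and stood in this order. Plin5 fell by 0.50 with mOSM (SE 0.10, adjusted p = 0.000374) and by 0.65 with hlOSM (adjusted p = 1.53e-05), to 0.637 times the PBS level, and its log2 change with mLIF was −0.30 (adjusted p = 0.0518). Dgat1, which makes the last step of triglyceride synthesis, was at 24, 18 and 27 with PBS, 22, 23 and 25 after mLIF, 32, 45 and 29 after mOSM and 37, 31 and 34 after hlOSM. All libraries of the OSM proteins were above PBS and mLIF. Dgat1 rose by 0.59 with mOSM (SE 0.19, adjusted p = 0.0197) and by 0.56 with hlOSM (adjusted p = 0.0231), and these low values lost the call without PBS replicate 2 or mOSM replicate 2 in the first case and without PBS replicate 2 or hlOSM replicate 1 or 3 in the second (adjusted p up to 0.146 and 0.131).

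Dgat2, the second enzyme of that step, ranged from 255 to 294 with PBS and from 229 to 299 over the cytokine libraries. The triglyceride lipase Pnpla2 ranged from 440 to 502 with PBS and from 410 to 490 over the cytokine libraries. Its successor in lipolysis, the hormone-sensitive lipase Lipe, ranged from 71 to 74 with PBS and from 67 to 106 over the cytokine libraries, with log2 fold changes of 0.32, 0.23 and 0.28. None of these 3 genes passed the threshold in any comparison.

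**Figure D3:**
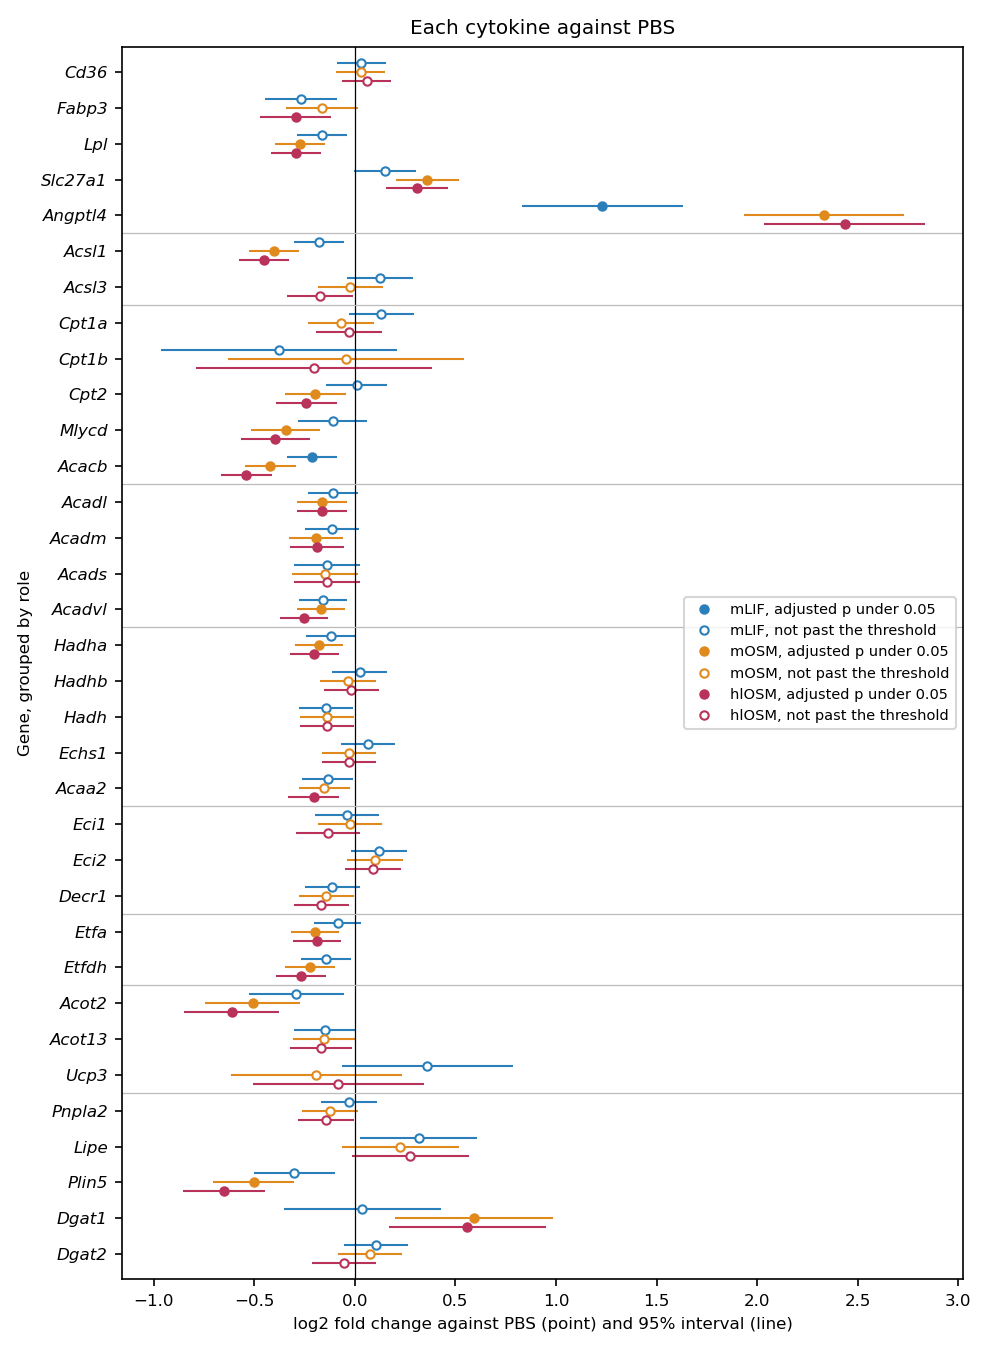
Log2 fold change of each of the 34 tested genes against PBS (points) with its 95% interval (lines) for mLIF, mOSM and hlOSM, filled where the adjusted p was under 0.05. Angptl4 stands far to the right at 1.23, 2.33 and 2.43, 15 genes are filled to the left of 0 with hlOSM and 1 with mLIF.

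The proteins were next compared with each other, to ask whether engagement of the LIF receptor, of the OSM receptor or of both gave different levels. Between mOSM and mLIF, 3 genes differed, Angptl4 higher and Acsl1 and Acacb lower with mOSM, where 11.8% of all tested genes passed the threshold and 5.76% of all tested genes were lower. Angptl4 was higher by 1.10 on the log2 scale (adjusted p = 0.000348). Acsl1 was at −0.22 (adjusted p = 0.0143) and Acacb at −0.21 (adjusted p = 0.0249), and these 2 calls were lost without mLIF replicate 1 or mOSM replicate 3, and without mLIF replicate 2 or 3 or mOSM replicate 2, respectively (adjusted p up to 0.0914 and 0.101). The count rose to 5 without PBS replicate 3, mOSM replicate 3 or hlOSM replicate 3.

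Between hlOSM and mLIF, 7 genes differed, where 16.6% of all genes passed the threshold, and 6 of them were lower with hlOSM, beside 9.22% of all genes. Angptl4 was higher by 1.20 (SE 0.19, adjusted p = 9.98e-05). Acacb was lower at −0.33 (adjusted p = 0.000461), Acsl1 at −0.27 (adjusted p = 0.00247), Plin5 at −0.35 (adjusted p = 0.0154), Mlycd at −0.29 (adjusted p = 0.019), Cpt2 at −0.25 (adjusted p = 0.020) and Acsl3 at −0.30 (adjusted p = 0.0111). The first 3 genes named kept the call without any 1 library. That of Acsl3 was lost without mLIF replicate 1 (adjusted p = 0.0596), that of Plin5 without mLIF replicate 3 or hlOSM replicate 2, that of Mlycd without mLIF replicate 2 or 3 or hlOSM replicate 2, and that of Cpt2 without mLIF replicate 1 or hlOSM replicate 1 or 2 (up to 0.151). Without hlOSM replicate 2 the count fell to 4.

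Between hlOSM and mOSM, 0 of the 34 genes differed by limma, where 0.106% of all tested genes did, and 0 had an unadjusted p under 0.05, where 7.49% of all genes did. The log2 differences ran from −0.16 to 0.11. The 95% interval of the difference lay within 1.5-fold in either direction for 33 of the 34 genes, the exception being Cpt1b. For Angptl4 the difference was 0.10 with an interval from −0.30 to 0.50, and for Acacb it was −0.12 with an interval from −0.24 to 0.01. In 2 genes, Acsl3 and Plin5, the libraries of both proteins did not overlap, with hlOSM below mOSM, and this was so in 9.74% of all tested genes.

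The design also allows the question whether the step from mOSM to hlOSM matched the step from PBS to mLIF. By limma, 0 of the 34 genes passed the threshold for this difference of differences, where 0.167% of all genes did, and 3 had an unadjusted p under 0.05, beside 11.5% of all genes. These were Angptl4, Acsl3 and Dgat2. For Angptl4, mLIF against PBS gave 1.23 and hlOSM against mOSM gave 0.10, a difference of −1.13 (SE 0.27, adjusted p = 0.103). Without PBS replicate 1 or without hlOSM replicate 3 Angptl4 passed the threshold, the only gene of the 34 to do so.

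**Figure D4:**
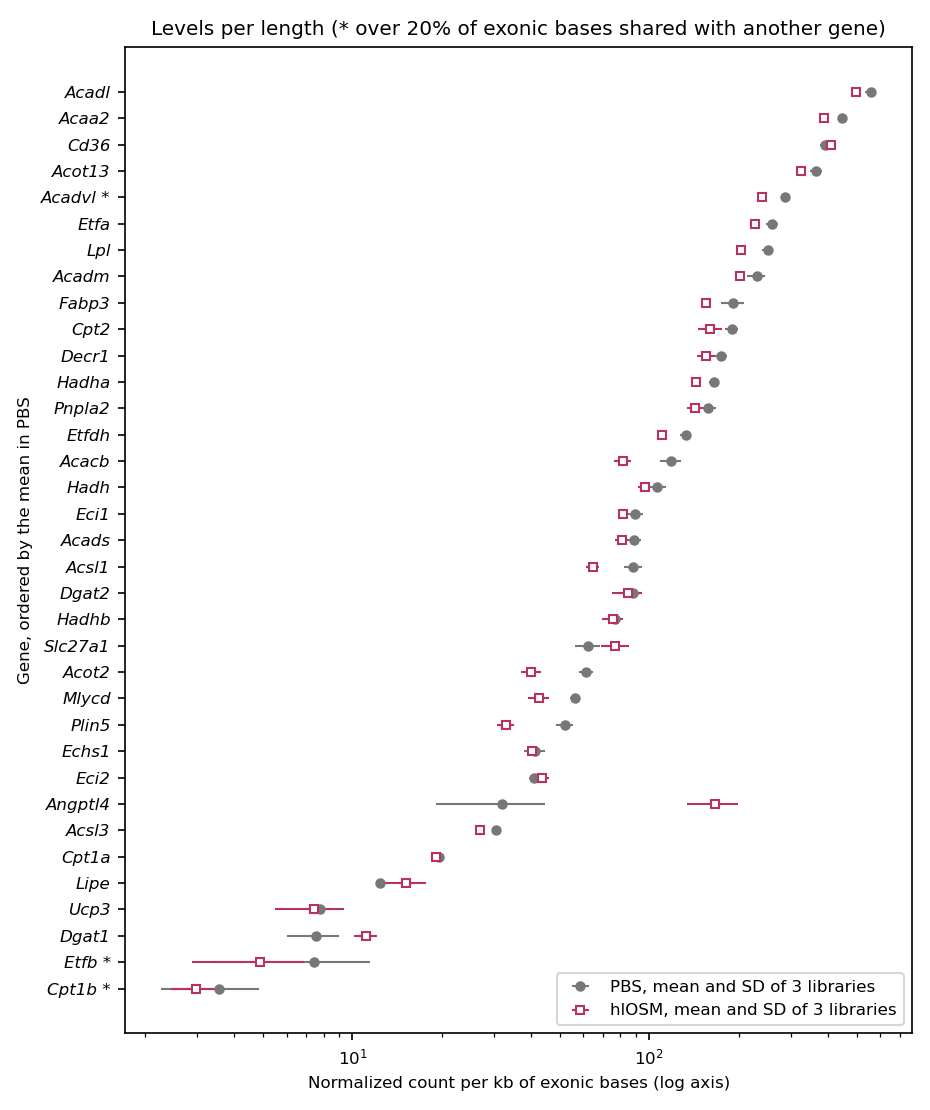
Normalized count per kb of exonic bases for all 35 genes with PBS (filled circles) and hlOSM (open squares), mean and SD of 3 libraries, on a log axis, ordered by the PBS mean. Acadl, Acaa2 and Cd36 stand at the top, Cpt1b and Etfb, marked for shared exonic bases, at the bottom, and Angptl4 moves from 31.9 to 166.

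Levels of different genes were set beside each other only per kb of exonic bases, with the isoforms of a gene merged. With PBS the most abundant transcripts on this scale were Acadl at 558, Acaa2 at 446, Cd36 at 392 and Acot13 at 365 normalized counts per kb. Acadvl at 287, Etfa at 260, Lpl at 251 and Acadm at 230 followed. The place of Acadvl is uncertain, since over its exonic bases that are free of Dvl2 its level was 502 per kb, between Acadl and Acaa2. Fabp3 stood at 192 over all and at 238 over its free bases. The lowest were Cpt1a at 19.6, Lipe at 12.3, Ucp3 at 7.76, Dgat1 at 7.53, Etfb at 7.45 and Cpt1b at 3.56, the levels of Etfb and Cpt1b being uncertain for the reason given above. Angptl4 stood at 31.9 with PBS and at 166 with hlOSM.

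A list of 88 further genes of fatty acid metabolism, of which 82 were tested, gave the surroundings of these changes. With mLIF, 7 were higher and 4 lower, beside 5.47% and 4.44% of all tested genes. With mOSM, 19 were higher and 20 lower, beside 15.4% and 15.8%, and with hlOSM 16 and 21, beside 18.2% and 19.8%. In either direction these were 13.4%, 47.6% and 45.1% of the 82, where 9.91%, 31.2% and 37.9% of all genes passed. Between mOSM and mLIF 8 were higher and 11 lower, 23.2% of the 82 beside 11.8% of all genes. Between hlOSM and mLIF 11 were higher and 14 lower, 30.5% beside 16.6%. Between hlOSM and mOSM 0 differed by limma, beside 0.106%, and 10 had an unadjusted p under 0.05, where 7.49% of all genes did. Among synthetases, Acsl5 was at 108, 109 and 77 with PBS, 153, 149 and 169 under mLIF, 220, 238 and 259 under mOSM and 245, 228 and 296 under hlOSM. It rose with each, by 0.69 (adjusted p = 0.000576), 1.29 (adjusted p = 1.36e-08) and 1.39 (adjusted p = 2.98e-09), with every library of the OSM proteins above mLIF. Acsl4, which prefers arachidonic acid, rose with mOSM by 0.64 and with hlOSM by 0.63, and its change with mLIF was −0.01. Acsl1, by contrast, fell. Vldlr, the receptor of very low density lipoprotein, fell by 0.29, 0.70 and 0.76 with mLIF, mOSM and hlOSM, from 1027, 1040 and 1109 with PBS to 583, 643 and 648 with hlOSM. Gpihbp1, the endothelial anchor of lipoprotein lipase and also on the endothelial marker list, was at 10, 11 and 10 with PBS and at 2, 1 and 0 with mOSM.

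In the making and keeping of triglyceride, the acyltransferase Gpat3 rose with each cytokine, by 0.42, 0.98 and 1.01, while Gpam, which encodes the mitochondrial acyltransferase of the same step, fell with mOSM and hlOSM by 0.52 each. Lpin2, a phosphatidate phosphatase, rose from 266, 301 and 242 with PBS to 592, 598 and 707 with hlOSM, by 1.23 (adjusted p = 1.40e-10), whereas Lpin1 fell from 1352, 1303 and 1346 to 941, 964 and 988, by 0.47 (adjusted p = 1.35e-07). Among droplet coats, Plin2 rose with mOSM by 0.42 and with hlOSM by 0.48, where Plin5 fell. G0s2, an inhibitor of triglyceride lipolysis, fell with mOSM and hlOSM at low values, from 15, 17 and 28 with PBS to 6, 8 and 8 with mOSM. The elongase Elovl1 rose with hlOSM by 0.89, from 47, 40 and 20 with PBS to 49, 54 and 94. The size of this rise rests largely on replicate 3 of both conditions. Elovl6 fell with mLIF by 0.53 and rose with mOSM by 0.34. Further genes that differed between hlOSM and mLIF included Acot9, Bscl2, Fads3, Srebf1 and Ppard, which were higher with hlOSM, and Acaa1a, Abcd3, Rxra, Prkaa2 and Esrra, which were lower.

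Of the 10 regulators on that list, 2 rose and 7 fell with mOSM, beside 15.4% and 15.8% of all tested genes. With hlOSM 1 rose and 5 fell, beside 18.2% and 19.8%. Ppargc1a, which encodes PGC-1alpha, was at 419, 422 and 413 in PBS libraries, 363, 374 and 382 in mLIF libraries, 257, 244 and 261 in mOSM libraries and 225, 225 and 240 in hlOSM libraries. It fell with mOSM by 0.72 (adjusted p = 5.26e-09) and with hlOSM by 0.86 (adjusted p = 2.05e-10), and the change with mLIF was −0.16 (adjusted p = 0.0821). Esrrg, an estrogen-related receptor, fell by 0.94 and 0.90 with mOSM and hlOSM, and Pparg fell by 0.58 and 0.66. Ppara, which encodes the alpha form, was at 62, 49 and 71 with PBS and 69, 68 and 62 after mLIF. It was at 44, 44 and 45 after mOSM and 47, 60 and 50 after hlOSM. Of its changes against PBS only the fall with mOSM passed the threshold (adjusted p = 0.0201). Per kb of exonic bases with PBS, Ppara stood at 15.8, Pparg at 22.9 and Ppard at 24.9. Ppard, which encodes the delta form, rose with mOSM by 0.62 and with hlOSM by 0.57.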

How the data were processed

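RNA of 12 libraries, 3 per condition, was analysed, with conditions and replicate numbers taken from the sample titles. According to the paper's methods and the submitters' processing notes, reads were trimmed, aligned to mm10 with STAR 2.7.7a and counted per gene with featureCounts 1.6.5 by the authors, who left out reads falling on several genes and then normalized the counts. The deposited values are rounded to whole numbers and are treated as scores on a normalized count scale. The normalization method is not given in the sources used here, and tests made for read counts were not run. Of the 162 genes on the lists, 160 had the same position in the GENCODE annotation that gave the exon lengths.

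The members and lists were chosen with earlier results of these data known. Genes with a score of at least 10 in at least 3 libraries were tested with limma 3.58.1 in R 4.3.3 on log2(score + 1), with all 4 conditions in a single fit, a mean-variance trend, two-sided p-values and Benjamini-Hochberg adjustment over 13184 genes, at a threshold of 0.05 with no minimum fold. A fold change on this scale understates the change of low genes. Values of every library are given for the 14 members with the smallest p of the F test over the conditions and for those called with mLIF or between cytokines, and other pathway genes are named where they differed between cytokines or were among the 4 largest rises or falls with hlOSM at a mean of at least 50. Values of some further members were added for completeness, and 1 other pathway gene that met this rule is not reported here. The fit was also run on simulated data in which all libraries were drawn independently. Same-numbered libraries of the real data were correlated, as given below, so that run cannot show how often these data give false calls. Promoter sequences are from RefSeq.

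Same-numbered libraries tended to deviate in opposite directions from their group means. The correlation of their deviations over 6626 genes ran from −0.52 to 0.02 in 18 pairs, with a median of −0.33 and 17 below 0. Numbers without meaning would give values around 0 on average, and a factor that same-numbered libraries still shared would give values above 0. Whether the authors' normalization adjusted for the replicate number is not stated and was not tested. The main fit leaves the replicate number out, and the fit with it as a block is given below. Alternatives were other pseudocounts, filters and normalizations, a robust variance estimate, only the libraries compared, a replicate block, stricter thresholds, and leaving out each library in turn.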

Additional observations from a re-analysis of the deposited data

How the results depend on the processing

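The direction of all 46 calls of single fatty acid genes was the same in every alternative run. When each library was left out in turn, the number of the 34 genes called was 1 to 7 with mLIF, 10 to 18 with mOSM, 13 to 20 with hlOSM, 2 to 5 between mOSM and mLIF, 4 to 8 between hlOSM and mLIF, 0 to 0 between hlOSM and mOSM and 0 to 1 for the difference of differences. The count of 10 with mOSM came without PBS replicate 3 (24.4% of all tested genes) and without mOSM replicate 1 (26.4%). The count of 7 with mLIF came without mOSM replicate 3 (12.3%). With mLIF, where 2 genes were called, 5 were called with a filter at a score of 50 (14.4% of all tested genes) or with trimmed mean rescaling (10.8%). With only the libraries compared 7 were called (13.1%), against 1 at a minimum of 1.5-fold or an adjusted p under 0.01. At 1.5-fold, 2 were called with mOSM (12.1% of all tested genes), 3 with hlOSM (14.8%), 1 between mOSM and mLIF (5.2%) and 1 between hlOSM and mLIF (6.78%), each below the share of all genes, and the 1 with mLIF stood beside 2.54%. At an adjusted p under 0.01 these counts were 9 with mOSM, 1 between mOSM and mLIF and 3 between hlOSM and mLIF. The shares of all genes at that threshold are not given here. Quantile normalization gave 7 between mOSM and mLIF (13% of all tested genes), where 3 were called. It also gave 1 further pathway gene, Lpin1, between hlOSM and mOSM, where 0 were called. Calls lost with quantile normalization were those of Acacb with mLIF, Cpt2, Acadl and Hadha with mOSM, and Acadl and Acadm with hlOSM. With mOSM it called 14 genes (31.8% of all tested genes), 10 of them lower, where 16 and 13 were called. As the authors' normalization is not known, these small falls are less certain than their p-values alone show. Apart from the stricter thresholds and the omitted libraries, the cause of these shifts was not tested.

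For the 82 further pathway genes, the counts with 1 library left out were 8 to 13 with mLIF, 27 to 39 with mOSM, 30 to 40 with hlOSM, 15 to 20 between mOSM and mLIF, 17 to 26 between hlOSM and mLIF, 0 to 0 between hlOSM and mOSM, and 0 to 1 for the difference of differences. At 1.5-fold the counts were 1, 13 and 13 with mLIF, mOSM and hlOSM, where 2.54%, 12.1% and 14.8% of all tested genes passed. They were 6 between mOSM and mLIF and 9 between hlOSM and mLIF, to be read beside the shares of all genes given above. At an adjusted p under 0.01 the last count was 15.

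With the replicate number as a block, 1 of the 34 genes was called with mLIF (5.95% of all tested genes), 12 with mOSM (25.3%) and 16 with hlOSM (31.2%). Between mOSM and mLIF 3 were called (8.81%), and between hlOSM and mLIF 5 (12.2%). The replicate block ended 9 of the 46 calls, those of Acacb with mLIF, Cpt2, Acadl, Acadvl and Dgat1 with mOSM, Acadl and Dgat1 with hlOSM, and Mlycd and Plin5 between hlOSM and mLIF. The depth of each library is not analysed here, so that the precision of the low genes, such as Dgat1, Ucp3 and Cpt1b, is known only from the spread of 3 libraries.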
